A study of Mus musculus with 92 samples.

Results

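Macrophages grown from mouse bone marrow (BMD macrophages) were compared with monocytes isolated from bone marrow (BM monocytes). The libraries were chosen by their labels: the 3 libraries of macrophages kept for 7 days in vitro and the 3 libraries of isolated monocytes, which together are 6 of the 92 samples of the series. Both groups came from wild-type mice of the FVB strain. The macrophages were grown in DMEM with 10% FBS and 30 ng/mL of M-CSF. The monocytes were enriched from whole marrow with a magnetic isolation kit and were not cultured in M-CSF before RNA extraction. In the study, which built conditionally immortalized ER-Hoxb8 macrophages as surrogates for microglia, these primary cells stand beside the immortalized cells. The comparison asks how marrow monocytes and cultured macrophages differ. The macrophages were grown from plated marrow progenitors and not from the isolated monocytes, so the comparison sets different preparations side by side and does not follow the same cells through culture. The labels give no age or sex and do not say whether marrow was pooled or whether replicates with the same number came from the same animal.

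Monocytes are circulating and marrow cells of the mononuclear phagocyte lineage that enter tissues along chemokine gradients and can become macrophages there. M-CSF, acting through the receptor encoded by Csf1r, drives that step in culture. Macrophages are known for taking up and digesting dead cells, particles and lipoproteins, for storing and exporting iron, and for a large lysosomal compartment.

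Values are CPM (counts per 1 M counts), rebuilt from the deposited log2 values and rescaled over the 6 libraries, and are given in the order of replicates 1, 2 and 3. The depth, estimated from the smallest step between low values, was 24.5, 43.4 and 25.1 M counts in the macrophage libraries and 41.4, 43.1 and 43.0 M counts in the monocyte libraries. At this depth 1 CPM stands for at least 22 counts, so that values of a few hundredths of a CPM rest on about 1 count. Between 15188 and 15921 genes were above 0 in the macrophage libraries, against 19619 to 20648 genes in the monocyte libraries, whereas 10619 to 10837 and 11003 to 11351 genes were above 1 CPM. The lowest deposited value differed between the groups, which were therefore taken to be normalized in different sets, and the same gap in genes above 0 separated ER-Hoxb8 macrophages from ER-Hoxb8 cells at 4 days, which differ in the same way (14883 to 15476 against 19281 to 19565 genes). The 10 most abundant genes held 16.9% to 26.7% of the counts in macrophages and 9.70% to 10.5% in monocytes. Mitochondrially encoded genes held 0.340% to 0.496% in macrophages and 0.700% to 0.922% in monocytes.

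The macrophage libraries were less alike than the monocyte libraries. Over the 11240 genes tested, Spearman correlations across genes, which are not independent replicates, were 0.947 to 0.965 between monocyte libraries. Macrophage replicates 1 and 2 correlated at 0.955, and replicate 3 correlated with them at 0.910 and 0.877. Between the groups the correlations were 0.738 to 0.801. The leading axis of a principal component analysis, with 72.2% of the variance, separated the groups, and the next axis (14%) set macrophage replicate 3 at -84.9 apart from replicates 1 and 2 at 27.5 and 54.1. Of the 8360 genes above 10 CPM in a macrophage library, 234 were at least 4-fold higher in replicate 3 than in both other replicates and 138 were at least 4-fold lower; the same counts were 1 and 88 for replicate 1 and 14 and 125 for replicate 2. For that reason results that rest on replicate 3 are given with and without it. The name of that library follows another scheme than those of replicates 1 and 2, and whether it came from another experiment is not stated.

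Cultured macrophages and marrow monocytes differed widely. A gene was called when limma gave a Benjamini-Hochberg adjusted p below 0.05 over all genes tested and a log2 fold change, macrophages minus monocytes, of at least 2 in size. Of the 11240 genes tested, 1489 (13.2%) were called, 631 (5.61%) higher in macrophages and 858 (7.63%) higher in monocytes. The shares of 5.61% and 7.63% are the background against which the counts of each list below are to be read. The median log2 fold change over all genes tested was -0.08, and 0.02 when the deposited values were used unchanged, a shift of 0.1 against which fold changes are to be read. The 3 libraries of a group all lay above the 3 of the other for 4928 genes (43.8%), with the macrophages above for 2211 (19.7%) and the monocytes above for 2717 (24.2%), and 1486 of the called genes were among these. An exact permutation test of 3 against 3 libraries cannot give a p below 0.1, so gene by gene the calls rest on the spread that limma shares between genes. With replicate number as a block, in case replicates were paired, 1488 genes were called (624 higher in macrophages and 864 higher in monocytes). Y transcripts, given below, differed between the groups for replicates 1 and 3, which therefore were not paired by animal. With 1 CPM in place of 0.1 CPM added before the logarithm, 1184 were called (508 and 676). Without macrophage replicate 3, and with CPM above 1 asked of at least 2 libraries, a setting chosen after seeing the data, 1992 genes were called. Single calls with a library left out are given below for this filter.

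**Figure D1:**
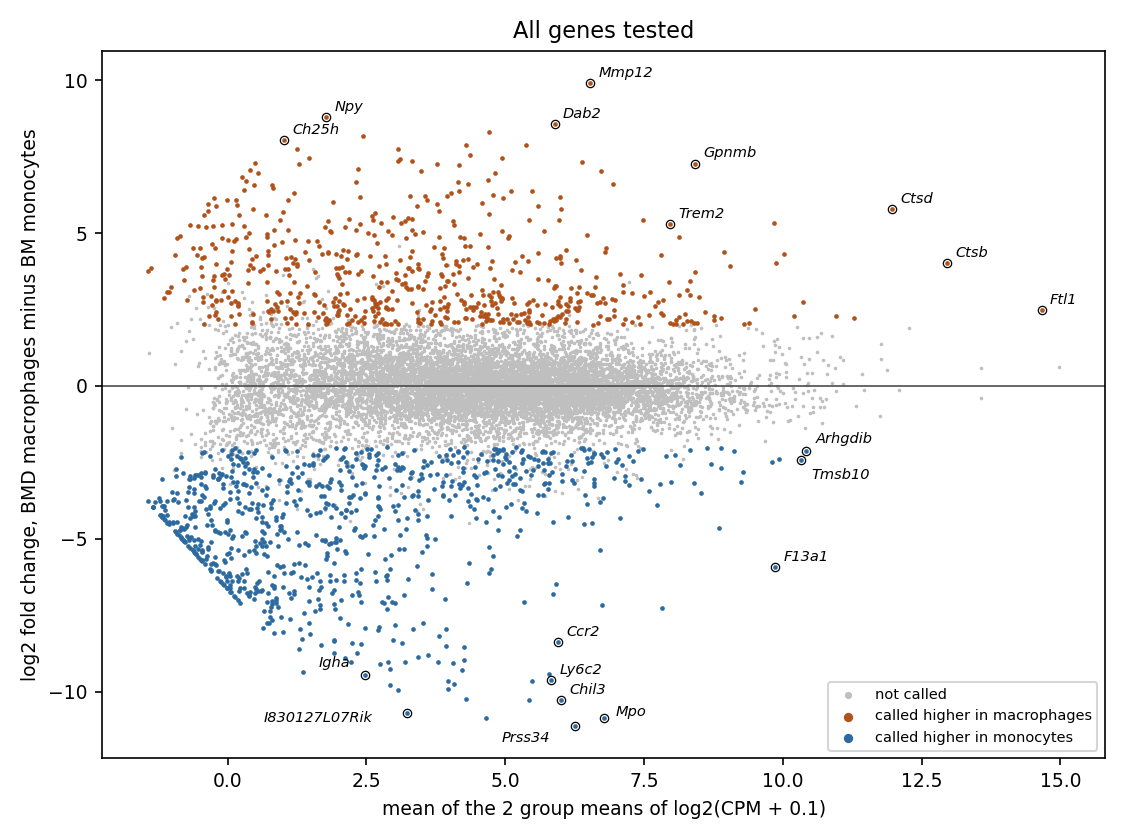
Each point is a gene tested, with the mean of the 2 group means of log2(CPM + 0.1) on the x axis and the log2 fold change of BMD macrophages minus BM monocytes on the y axis (3 libraries a group). Orange points are the 631 genes called higher in macrophages, blue points the 858 called higher in monocytes and grey points were not called; named genes are circled, and the lower left edge is set by genes at or near 0 in macrophages.

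The labels of both groups were checked against marker lists. Of 13 macrophage identity genes that the study names, all 13 were tested, 7 were called higher in macrophages and 0 in monocytes (background 5.61% and 7.63%), with a median log2 fold change of 2.26 against -0.08 over all genes tested. Trem2, a receptor for lipids and lipoproteins, stood at 2019, 1542 and 1219.7 CPM in macrophages and 36.4, 32.8 and 52.5 CPM in monocytes, a log2 fold change of 5.29 ± 0.27 (SE, n = 3 against 3; limma adjusted p 5.42e-05). Mertk, a receptor that recognizes apoptotic cells through bridging proteins, stood at 60.4, 82.5 and 43.6 CPM and 2.83, 9.46 and 2.04 CPM (log2 fold change 3.94 ± 0.58). Every macrophage library was above every monocyte library for these genes. Emr1, which encodes the F4/80 antigen, and Cd68, a protein of late endosomes, differed by 2.90 ± 0.35 and 2.76 ± 0.29 on the log2 scale, again with no overlap. Csf1r, the M-CSF receptor, stood at 2615, 1528 and 3297 CPM in macrophages and 799, 649 and 474 CPM in monocytes; its log2 fold change of 1.91 ± 0.35 lay just under the limit of 2, and it was called without monocyte replicate 1 or without macrophage replicate 2. Cx3cr1, the fractalkine receptor, varied most among macrophages of the genes in this list, at 788, 7.15 and 1340.2 CPM against 391, 249 and 163 CPM in monocytes, with macrophage replicate 2 far below and the other macrophage replicates above all monocyte libraries. It was called higher in macrophages when replicate 2 was left out (log2 fold change 2.06). Ptprc, which encodes the leukocyte antigen CD45, was present in all 6 libraries, at 517, 469 and 509 CPM and 1006, 934 and 682 CPM.

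Genes of classical monocytes, the kind that carries Ly6C and enters inflamed tissue, lay the other way. Of the 12 listed, 10 were called higher in monocytes and 0 in macrophages, and the median log2 fold change was -8.72. Ly6c2, which encodes the Ly6C antigen, stood at 2.65, 1.56 and 1.70 CPM in macrophages and 1254, 1482 and 2169 CPM in monocytes, a log2 fold change of -9.62 ± 0.30 (limma adjusted p 2.96e-05). Ccr2, the receptor for the chemokine CCL2, stood at 4.04, 2.32 and 3.83 CPM and 1504, 1035 and 936 CPM (log2 fold change -8.38 ± 0.30). The 3 macrophage libraries were uniformly low for these genes and the 3 monocyte libraries uniformly high. F13a1, the coagulation factor XIII A chain and the most abundant gene called higher in monocytes, stood at 8542, 7208 and 6067 CPM there and at 48.1, 31.9 and 1097 CPM in macrophages, where replicate 3 was far above replicates 1 and 2. S100a4 and Itga4 were the listed genes not called; S100a4 stood at 16.9, 6.31 and 300.2 CPM in macrophages, overlapping the 45.2, 37.8 and 70.3 CPM of monocytes, and was called higher in monocytes only when macrophage replicate 3 was left out.

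**Figure D2:**
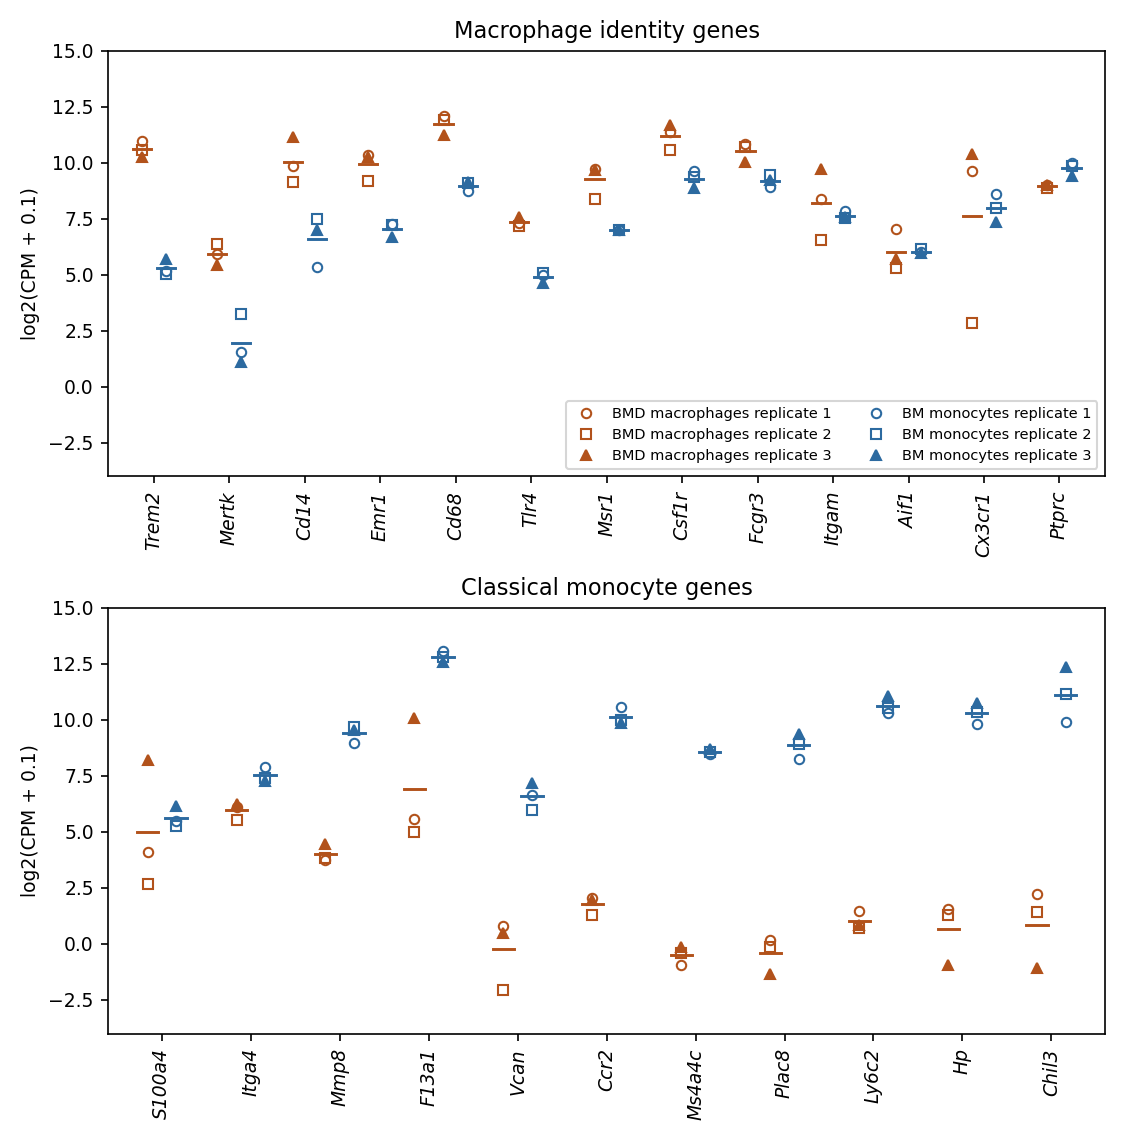
Each symbol is the log2(CPM + 0.1) of a gene in a library, for the macrophage identity list (upper panel) and the classical monocyte list (lower panel); circles, squares and triangles are replicates 1, 2 and 3, orange for BMD macrophages and blue for BM monocytes, and the short line is the mean of the 3 log2 values. The groups are apart for 7 called identity genes and for the 9 called monocyte genes shown, and macrophage replicate 3 lies above the other macrophages for S100a4 and F13a1.

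Patrolling monocytes, which crawl along vessel walls, carry little Ly6C. Of 9 genes listed for them, 4 were called higher in monocytes and 1 higher in macrophages (median log2 fold change -3.28, and -1.98 without monocyte replicate 2 when CPM above 1 was asked of at least 3 libraries). Nr4a1, the nuclear receptor that these cells need and an early response gene that preparation of cells can switch on, stood at 1.97, 0.799 and 1.18 CPM in macrophages and 64.8, 75.8 and 32.5 CPM in monocytes (log2 fold change -5.35 ± 0.47), and Treml4 at 3.56, 1.81 and 11.5 CPM and 58.9, 62.0 and 53.4 CPM. The listed gene that was higher in macrophages was Cd36, a receptor for oxidized lipoproteins and fatty acids that cultured macrophages also carry (855, 978 and 82.9 CPM against 11.1, 16.9 and 4.60 CPM). Spn, which encodes CD43, was called higher in monocytes only when macrophage replicate 3 was left out.

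The genes with the largest folds in favour of macrophages encode proteins of varied function. Among called genes with groups that do not overlap and a mean above 10 CPM, Mmp12, macrophage elastase, had the largest positive log2 fold change, 9.91 ± 0.91 (limma adjusted p 0.000331), from 5494, 7867 and 541 CPM in macrophages and 2.87, 3.16 and 2.59 CPM in monocytes. Macrophage replicate 3 was the lowest of its group and still far above each monocyte library. Npy, neuropeptide Y, stood at 56.6, 54.0 and 122 CPM and 0.0403, 0.114 and 0.0431 CPM (8.79 ± 0.47), where the monocyte values amount to a few counts. Dab2, a clathrin adaptor for endocytosis, stood at 2063, 258 and 2902 CPM and 3.23, 2.98 and 2.62 CPM (8.57 ± 0.82), with macrophage replicate 2 the lowest of its group. The other 12 genes that the rule names were Pmp22, Fcrls, Ch25h, Syngr1, Anpep, Gas6, Slc6a8, C1qc, Snx24, Hpgds, Fblim1 and Arhgap22, with log2 fold changes of 7.36 to 8.31. Hpgds, a prostaglandin D synthase, stood at 532, 420.3 and 303 CPM in macrophages against 1.84, 2.26 and 2.59 CPM in monocytes. Gpnmb, a glycoprotein of lysosomes and melanosomes and among the 5 most abundant genes called higher in macrophages, stood at 11952, 18430 and 347 CPM against 31.6, 27.9 and 23.1 CPM; replicate 3 had a small part of the level of replicates 1 and 2 and remained above all monocyte libraries. Each of the genes of this paragraph kept its call when any of the 6 libraries was left out.

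Lysosomal genes leaned toward macrophages, and some of the most abundant transcripts were lysosomal. Of 35 listed hydrolases, activators and membrane proteins, 10 were called higher in macrophages and 0 in monocytes, the median log2 fold change was 1.53, and 31 had a positive value. Ctsd, which encodes the aspartic protease cathepsin D, stood at 38382, 36258 and 19068 CPM in macrophages and 566, 537 and 524 CPM in monocytes, a log2 fold change of 5.78 ± 0.34 (limma adjusted p 7.21e-05). Ctsb, the cysteine protease cathepsin B, stood at 41436, 43388 and 18189 CPM and 1864, 2148 and 1956 CPM (4.01 ± 0.41). Cathepsin B transcripts held 3.78%, 3.88% and 1.72% of the counts in macrophage replicates 1, 2 and 3, and cathepsin D transcripts 3.50%, 3.25% and 1.80%, shares of counts that are not corrected for transcript length. Lipa, lysosomal acid lipase, stood at 5207, 6335 and 3018 CPM and 217, 266 and 224 CPM (4.30 ± 0.31). Gla, alpha-galactosidase A, was far less abundant, at 27.8, 30.0 and 27.0 CPM and 2.28, 3.31 and 3.82 CPM (3.16 ± 0.33), alike in all 3 macrophage libraries. The groups did not overlap for these genes. Ctsl, Cd63, Lgmn and Npc1 were also higher in macrophages in every library, with log2 fold changes of 2.64 to 4.44. Ctss lay near the limit of 2 and kept its call in 2 of the 6 fits that left out a library. Psap, the precursor of the saposins, was abundant in both groups with overlapping values (17967, 37004 and 4975 CPM against 10112, 10081 and 9752 CPM), and Ctsc and Ctsh were among the 4 listed genes with a negative value. The summed level of the list was 144314, 162694 and 69709 CPM in macrophages and 25325, 26611 and 25441 CPM in monocytes, so macrophage replicate 3 was lowest of its group and still above every monocyte library.

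Promoters are shown for Ctsd and Gla, the called lysosomal genes found to hold TCACGTGA, and are not typical of the list. Lysosomal genes are known to share an E-box element read by MITF and TFE family factors, and both of these genes were higher in every macrophage library. They are RefSeq promoters of build GRCm38.p6, 250 bases before to 50 after the start, Ctsd at chr7:142387778-142388077 and Gla at chrX:134600956-134601255, both on the minus strand; capitals mark TCACGTGA and CACGTG, where CACGTG lies inside TCACGTGA.
Ctsd: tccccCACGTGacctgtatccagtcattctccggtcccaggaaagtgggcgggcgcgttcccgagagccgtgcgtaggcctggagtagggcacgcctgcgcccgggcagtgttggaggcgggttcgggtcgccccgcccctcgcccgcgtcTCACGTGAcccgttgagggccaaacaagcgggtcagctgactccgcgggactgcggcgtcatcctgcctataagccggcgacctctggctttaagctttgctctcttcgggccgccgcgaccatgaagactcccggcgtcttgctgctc
Gla: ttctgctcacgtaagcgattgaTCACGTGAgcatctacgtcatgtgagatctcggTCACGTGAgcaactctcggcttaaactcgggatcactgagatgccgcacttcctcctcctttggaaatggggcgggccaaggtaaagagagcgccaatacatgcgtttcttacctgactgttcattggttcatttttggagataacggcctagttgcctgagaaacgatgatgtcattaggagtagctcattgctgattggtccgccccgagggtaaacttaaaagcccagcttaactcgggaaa
On either strand, TCACGTGA was found in 4 of the 29 lysosomal genes with a promoter in the table (13.8%), in 3 of 11 genes of the vacuolar proton pump (27.3%), in 1.12% of the 27025 genes with a promoter and in 2.3% of the 8390 genes tested that had one. CACGTG was found in 9 of the 29 lysosomal genes (31%), in 4 of the 11 pump genes (36.4%), in 4 of 13 sterol synthesis genes (30.8%), in 8.09% of all genes with a promoter and in 12% of the tested ones. Among all genes called higher in macrophages the share with CACGTG was 11.8%, and among those called higher in monocytes 9.06%. These were among 16 motifs searched, and a match says only that the letters are in the window.

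The proton pump that acidifies lysosomes followed the same direction at smaller size. All 16 listed subunits of the vacuolar ATPase had a positive log2 fold change, the median of 1.05 stayed positive under each scaling tried, and 4 were called higher in macrophages. Atp6v0a1, a membrane subunit, stood at 769, 1000 and 304 CPM in macrophages and 66.8, 61.8 and 29.4 CPM in monocytes (log2 fold change 3.63 ± 0.50), with no overlap. Atp6v0d2, an isoform known from osteoclasts and some macrophages, stood at 564, 654 and 6.25 CPM and 2.49, 1.75 and 1.08 CPM; replicate 3 was close to the monocytes, and the call was kept in 1 of the 6 fits that left out a library, the fit without replicate 3. Atp6v1a and Atp6v1c1, of the part that splits ATP, differed by 2.06 ± 0.22 and 2.17 ± 0.29 and lost their call without macrophage replicate 2, which left 1 called subunit.

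Receptors for debris and dying cells, together with the proteins that tag them, formed the list with the highest median among the 41 lists. Of 24 listed genes 21 were tested, 14 were called higher in macrophages and 1 in monocytes, and the median log2 fold change was 3.94. Gas6, a bridging protein between apoptotic cells and the receptors Axl and Mertk, stood at 174, 243 and 44.2 CPM in macrophages and 2.56, 0.133 and 0.194 CPM in monocytes (log2 fold change 7.77 ± 1.03). Axl stood at 199, 280.2 and 186 CPM and 10.4, 17.5 and 6.34 CPM (4.36 ± 0.38), and Stab1, the scavenger receptor stabilin, at 453, 232 and 299 CPM and 2.51, 2.69 and 2.16 CPM (6.96 ± 0.30; limma adjusted p 4.04e-05). All macrophage libraries exceeded all monocyte libraries by a wide margin for these 3 genes. Mrc1, the mannose receptor, stood at 250.4, 223 and 99.6 CPM and 8.76, 6.61 and 3.88 CPM (4.84 ± 0.44), and Colec12, a collectin, at 412, 344 and 919.9 CPM and 28.8, 29.4 and 16.6 CPM. Olr1, a receptor for oxidized LDL, was the listed gene called higher in monocytes, at 2.31, 2.89 and 3.09 CPM there and 0.0304, 0.117 and 0.0275 CPM in macrophages. Marco, Timd4 and Tyro3 were too low to be tested. Cd163, a hemoglobin scavenger receptor of tissue macrophages, stood at 25.4, 6.05 and 24.4 CPM in macrophages and 12.7, 12.1 and 8.26 CPM in monocytes, and the groups overlapped.

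**Figure D3:**
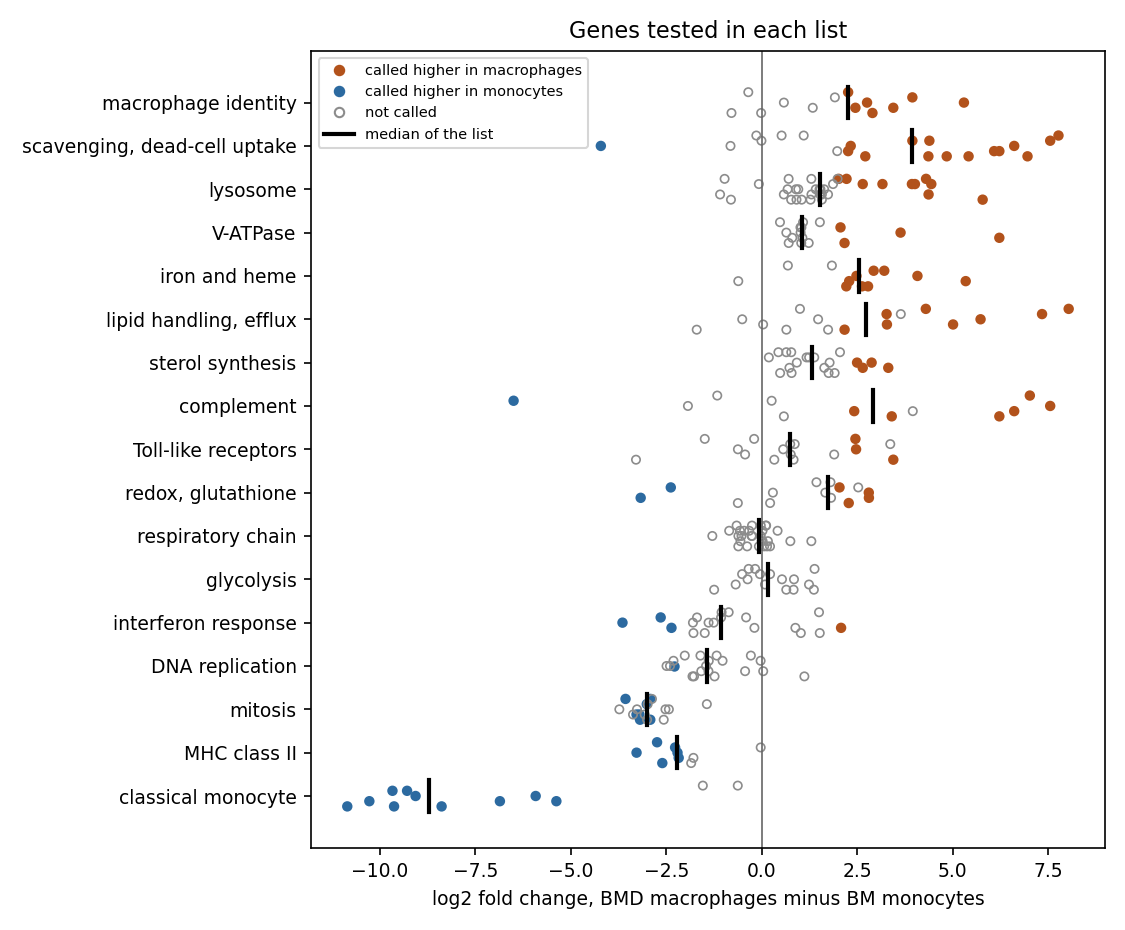
Each point is the log2 fold change (BMD macrophages minus BM monocytes, x axis) of a tested gene in 17 of the gene lists (y axis); filled orange and blue points were called higher in macrophages and in monocytes, open points were not called, and the black bar is the median of the list. The medians run from -8.72 for classical monocyte genes to 3.94 for scavenging and dead-cell uptake, against -0.08 over all genes tested; the respiratory chain median (-0.07) turns positive with the deposited values unchanged or without further scaling, and the glycolysis median (0.15) turns negative with array weights or without macrophage replicate 3.

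Complement genes leaned toward macrophages. Of 16 listed genes 12 were tested, 6 were called higher in macrophages and 1 in monocytes (background 5.61% and 7.63%, median 2.91). Without macrophage replicate 1, and with CPM above 1 in at least 2 libraries, 14 were tested and the median was 1.51. With all libraries kept and CPM above 1 asked of at least 1, 16 were tested and it was 1.5. The chains of C1q, which opens the classical pathway and marks dying cells, were near 0 in monocytes: C1qa stood at 139, 32.4 and 132 CPM in macrophages and 0.455, 1.10 and 2.07 CPM in monocytes (log2 fold change 6.22 ± 0.71). C1qb and C1qc differed by 6.61 ± 0.62 and 7.55 ± 0.56. The receptors for the fragments C3a and C5a were also higher in macrophages, C3ar1 at 1428, 736 and 1639.9 CPM against 9.89, 12.2 and 6.33 CPM (7.02 ± 0.37) and C5ar1 at 876, 598 and 1004 CPM against 45.2, 115 and 85.4 CPM. C3 itself, the central component, lay the other way, at 4.97, 9.94 and 4.97 CPM in macrophages and 560.4, 481 and 705 CPM in monocytes (-6.50 ± 0.32). Its values did not overlap between the groups.

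Lipid handling genes varied strongly among the macrophage libraries. Of 16 genes for uptake, storage and efflux, 8 were called higher in macrophages and 0 in monocytes, with a median log2 fold change of 2.72. Apoe, the apolipoprotein that macrophages secrete with cholesterol, stood at 201, 3643 and 1654 CPM in macrophages and 3.21, 15.8 and 5.36 CPM in monocytes (7.34 ± 1.05; limma adjusted p 0.00244). Lpl, lipoprotein lipase, stood at 1843, 896 and 584 CPM and 41.1, 48.7 and 63.3 CPM (4.29 ± 0.41), with no overlap. Ch25h, which makes 25-hydroxycholesterol, stood at 37.9, 2.81 and 322 CPM in macrophages, more than 100-fold apart between replicates 2 and 3, and at or near 0 in monocytes. Abcg1, a cholesterol exporter, was not called (212, 399 and 13.6 CPM against 80.9, 132 and 101 CPM), replicate 3 lying far below the other macrophages. The count of 8 was unstable: with CPM above 1 in at least 2 libraries it was 4 without monocyte replicate 3, 5 without monocyte replicate 1, macrophage replicate 1 or macrophage replicate 2, 6 without monocyte replicate 2 and 10 without macrophage replicate 3. Ch25h, Apoe, Fabp3 and Lpl were called in each of these fits.

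Genes of sterol synthesis lay above 0 throughout. All 20 were tested, all had a positive log2 fold change and 4 were called higher in macrophages, with a median of 1.31 that stayed positive under each scaling tried. Sqle, squalene epoxidase, stood at 238, 212 and 144 CPM in macrophages and 28.8, 29.1 and 21.7 CPM in monocytes (log2 fold change 2.88 ± 0.26; limma adjusted p 0.000321). Lss, lanosterol synthase, stood at 142, 119.9 and 50.3 CPM and 16.4, 5.84 and 8.90 CPM (3.31 ± 0.51), with no overlap. Without macrophage replicate 3, whose values were the lowest of the group for Sqle and Lss, 7 of the 20 were called.

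Iron genes had the highest share of genes called higher in macrophages among the 41 lists. Of 12 listed genes, 9 were called higher in macrophages and 0 in monocytes, with a median log2 fold change of 2.55, and between 8 and 9 were called when each library was left out. Ftl1, the ferritin light chain, was the most abundant gene in macrophages, at 63739, 79912 and 44786 CPM against 8891, 11482 and 12915 CPM in monocytes (2.48 ± 0.44; limma adjusted p 0.00639). Fth1, the ferritin heavy chain, stood at 1056, 12519 and 14816 CPM and 80.3, 314 and 117 CPM, with replicate 1 far below the other macrophages (5.34 ± 1.02). Slc40a1, the iron exporter ferroportin, stood at 43.6, 189 and 44.0 CPM and 3.30, 5.29 and 4.04 CPM (4.08 ± 0.59). None of these 3 genes overlapped between the groups. Slc11a1, the phagosomal metal transporter, Tfrc, the transferrin receptor, and Blvrb, which reduces biliverdin, differed by 2.62 ± 0.22, 2.21 ± 0.28 and 2.78 ± 0.19. Hmox1, heme oxygenase, was highest in macrophage replicate 3 (304, 246 and 1677 CPM against 60.1, 71.1 and 66.1 CPM) and lost its call without each of the 3 monocyte libraries. Trf, transferrin, was not called and overlapped.

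Redox genes were divided. Of 14 genes of glutathione use and NRF2 response, 4 were called higher in macrophages and 2 in monocytes (median 1.73). Srxn1, sulfiredoxin, stood at 48.1, 59.9 and 40.1 CPM in macrophages and 10.4, 6.19 and 5.09 CPM in monocytes (log2 fold change 2.80 ± 0.35), and Prdx1, a peroxiredoxin, at 4561, 5966 and 3099 CPM and 776, 904 and 1056 CPM (2.28 ± 0.30). Gsr, glutathione reductase, lay the other way at 14.7, 37.7 and 11.2 CPM and 112, 164 and 252 CPM (-3.17 ± 0.50). The groups did not overlap for these 3 genes. Gpx1, glutathione peroxidase, called higher in monocytes, and Txnrd1, called higher in macrophages, did not keep their calls in all leave-one-out fits.

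Transcription factors of the myeloid lineage were called in both directions. Of 37 listed genes 35 were tested, 9 were called higher in macrophages and 8 in monocytes, and the median log2 fold change, 0.00, changed sign between settings. Id3, an inhibitor of helix-loop-helix factors, stood at 256, 136 and 303 CPM in macrophages and 1.42, 2.20 and 0.779 CPM in monocytes (7.24 ± 0.46; limma adjusted p 9.72e-05). Maf stood at 228, 163 and 165 CPM and 2.34, 4.41 and 4.44 CPM (5.64 ± 0.33). Atf3, Bhlhe40 and Bhlhe41 were also higher in each macrophage library, by 4.91 ± 0.35, 4.09 ± 0.44 and 3.24 ± 0.37. On the monocyte side Klf4, needed for monocyte formation, stood at 1.38, 1.28 and 1.79 CPM in macrophages and 31.7, 41.2 and 77.5 CPM in monocytes (-4.89 ± 0.42). Myb, a factor of immature hematopoietic cells, stood at 0.254, 0.147 and 0 CPM and 20.8, 21.8 and 25.0 CPM (-6.78 ± 0.55). Spi1, which encodes PU.1 and is needed throughout the lineage, was at like levels, 18.7, 19.6 and 16.3 CPM and 22.1, 20.2 and 19.9 CPM (-0.19 ± 0.24), as was Irf8 with overlapping groups. Mitf lost its call without macrophage replicate 2 and Tfec without macrophage replicate 1. Of the 6 fits that left out a library, Batf3 kept its call in 1, Irf4 and Klf2 in 3 and Id2 in 4. The count called higher in monocytes was 4 without macrophage replicate 1 and 5 without monocyte replicate 2.

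Mitosis genes leaned toward monocytes, and the number called hung on macrophage replicate 3. Of 18 mitosis genes, all 18 had a negative log2 fold change, 7 were called higher in monocytes and the median was -3.0. Top2a, the topoisomerase that untangles chromosomes, stood at 52.9, 19.9 and 363 CPM in macrophages and 666, 703 and 645 CPM in monocytes (-3.20 ± 0.92; limma adjusted p 0.0409). Mki67, the proliferation antigen Ki-67, stood at 46.5, 12.7 and 143 CPM and 367, 321 and 379 CPM (-3.01 ± 0.76), and Plk1, polo-like kinase, at 16.9, 10.4 and 182 CPM and 276, 323 and 276 CPM (-3.19 ± 0.95). Monocyte libraries were alike and high, macrophage replicates 1 and 2 were low, and replicate 3 lay between. The summed level of the list was 440, 178 and 2969.7 CPM in macrophages and 4259, 4879 and 4271 CPM in monocytes. Without macrophage replicate 3 all 18 genes were called higher in monocytes, with a median of -4.23. With CPM above 1 in at least 2 libraries, 4 were called without macrophage replicate 2 and 0 without macrophage replicate 1 or without any of the 3 monocyte libraries, and Top2a and Plk1 were called only without macrophage replicate 3. Of 20 DNA replication genes, 1 (Mcm7) was called higher in monocytes, against 7.63% of all genes tested, with a median of -1.43, which was -0.59 without macrophage replicate 2. Without macrophage replicate 3, 10 of the 20 were called, and in each of the other 5 fits that left out a library 0 were. E2f1, not called, was above every monocyte library in all macrophage libraries (48.3, 41.3 and 37.2 CPM against 19.3, 15.2 and 24.6 CPM). Of 7 tested stem and progenitor genes 3 were called higher in monocytes, and which cells held the mitosis transcripts was not tested.

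The promoters of Plk1 and Top2a, called mitosis genes found to hold both TTTGAA and CCAAT, are shown as examples with these motifs. Cell cycle genes are known to carry CHR and CCAAT elements near the start, and these genes varied alike over the 6 libraries. They are RefSeq promoters of build GRCm38.p6, Plk1 at chr7:122159185-122159484 on the plus strand and Top2a at chr11:99024140-99024439 on the minus strand, and capitals mark TTTGAA, the core of the CHR, and CCAAT, on either strand; these motifs do not overlap each other.
Plk1: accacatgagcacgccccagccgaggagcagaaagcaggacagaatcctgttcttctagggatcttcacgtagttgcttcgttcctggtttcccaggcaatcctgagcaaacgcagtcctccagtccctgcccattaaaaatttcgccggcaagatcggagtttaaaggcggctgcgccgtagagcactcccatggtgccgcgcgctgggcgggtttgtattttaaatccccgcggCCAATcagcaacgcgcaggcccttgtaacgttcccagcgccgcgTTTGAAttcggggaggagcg
Top2a: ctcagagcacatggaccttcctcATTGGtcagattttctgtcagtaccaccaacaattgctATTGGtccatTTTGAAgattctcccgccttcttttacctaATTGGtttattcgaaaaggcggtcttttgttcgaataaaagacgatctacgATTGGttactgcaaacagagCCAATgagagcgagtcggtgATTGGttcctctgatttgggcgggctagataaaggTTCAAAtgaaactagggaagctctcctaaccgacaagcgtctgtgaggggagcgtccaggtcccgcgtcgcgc
TTTGAA was found in 9 of the 14 mitosis genes with a promoter in the table (64.3%), in 20.2% of all genes with a promoter and in 14.7% of the tested ones. CCAAT was found in 12 of the 14 (85.7%), in 41.1% of all and in 43.4% of the tested ones, but also in all 13 sterol synthesis genes and all 7 MHC class II genes with a promoter in the table. CACGTG, shown above for lysosomal genes, was found in 0 of the 14.

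**Figure D4:**
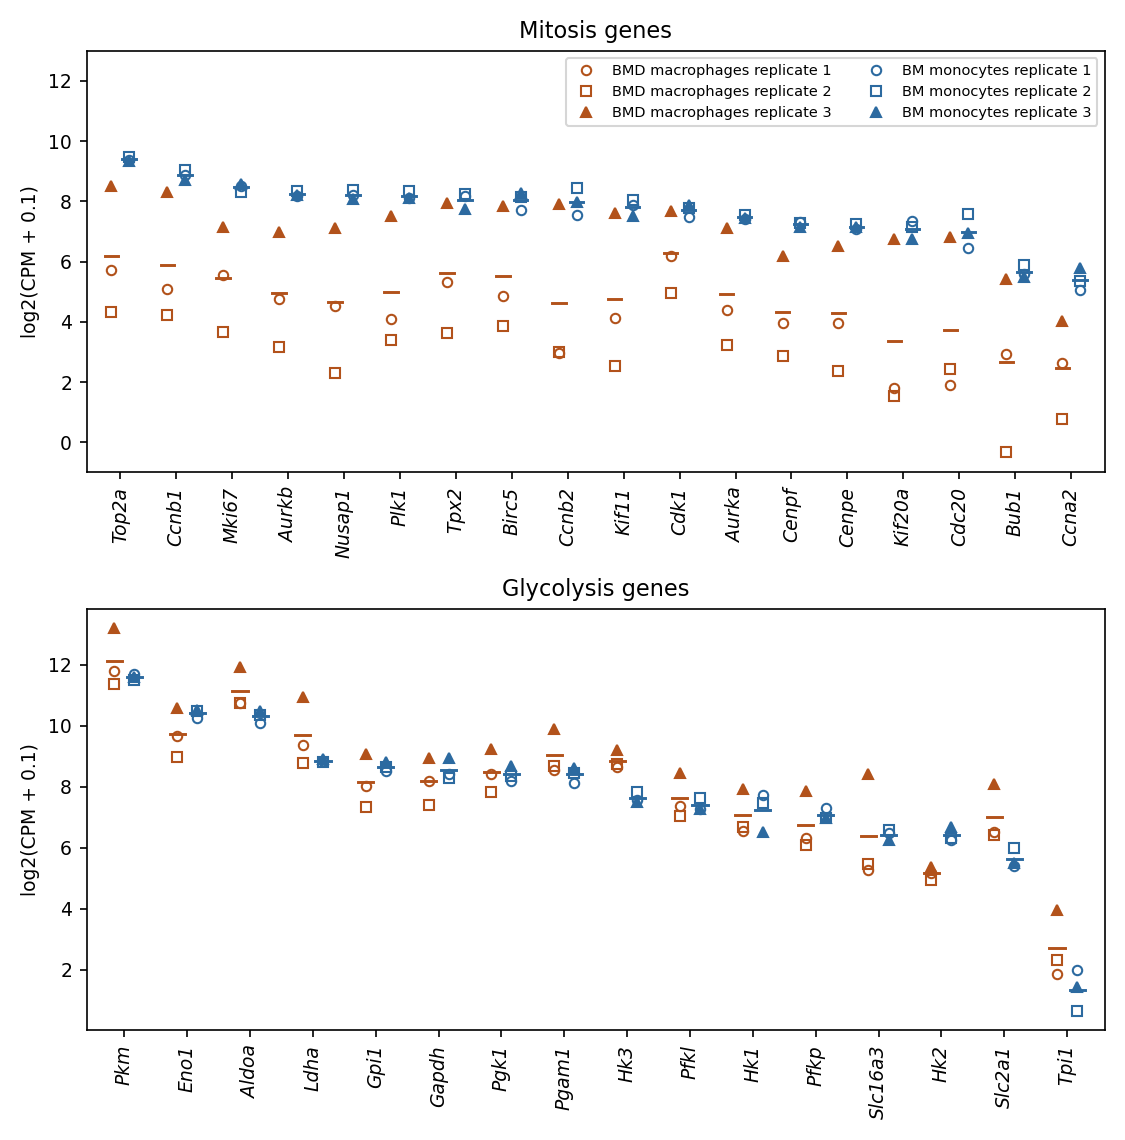
Each symbol is the log2(CPM + 0.1) of a gene in a library, for mitosis genes (upper panel) and glycolysis genes (lower panel); circles, squares and triangles are replicates 1, 2 and 3, orange for BMD macrophages and blue for BM monocytes, and the short line is the mean of the 3 log2 values. Macrophage replicate 3 lies above macrophage replicates 1 and 2 for all 18 mitosis genes and for all 16 glycolysis genes.

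Central carbon metabolism was not called in either direction. Of 16 glycolysis genes 0 were called by limma, with a median log2 fold change of 0.15 and an unadjusted p below 0.05 for 3 of them, Hk3, Hk2 and Slc2a1. Hk3, the myeloid hexokinase, stood at 397, 429 and 585 CPM in macrophages and 187, 226 and 179.7 CPM in monocytes (1.24 ± 0.22), and Hk2 at 36.2, 30.8 and 40.9 CPM and 75.4, 79.0 and 103 CPM (-1.25 ± 0.23). Neither gene overlapped between the groups, and they lay in opposite directions. Pkm, pyruvate kinase, stood at 3576, 2675 and 9521 CPM and 3334, 2931 and 3099 CPM. The summed level of the list was 8950.3, 7220.1 and 21577 CPM in macrophages and 8307, 8505 and 9003 CPM in monocytes, macrophage replicate 3 alone standing apart, and without it the median was -0.23. Of 30 nuclear respiratory chain genes 29 were tested and 0 were called (median -0.07), with unadjusted p below 0.05 for 5 of them. The median turned positive, at 0.03, with the deposited values unchanged and without further scaling. Cox4i1, a subunit of cytochrome oxidase, stood at 700.2, 731 and 652 CPM and 525, 639 and 871 CPM.

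The MHC class II genes that were called were all higher in monocytes. Of 10 MHC class II genes 9 were tested, 6 were called higher in monocytes and 0 in macrophages, and the median log2 fold change was -2.21. Cd74, the invariant chain that guides class II molecules, stood at 127, 173 and 68.5 CPM in macrophages and 1306, 688 and 377 CPM in monocytes (-2.60 ± 0.50; limma adjusted p 0.00894). H2-DMb2, a chain of the peptide loading molecule, stood at 24.1, 20.2 and 30.5 CPM and 109, 102 and 125 CPM (-2.17 ± 0.23). H2-Aa, a classical class II chain, stood at 11.7, 16.9 and 12.1 CPM and 127, 55.6 and 33.7 CPM and lost its call without monocyte replicate 1, the highest of the 3. The groups did not overlap for these genes. Cd74 and H2-Aa fell from monocyte replicate 1 to replicate 3, as did the summed B lineage list (3037, 1489 and 1131 CPM), and which cells held the class II transcripts was not tested. Ciita, the master regulator, was low in both (0.528, 1.24 and 0.243 CPM and 6.54, 0.876 and 1.73 CPM) and not called, and H2-Eb1 was listed at 0 in all macrophage libraries and above 0 in 1 monocyte library. Co-stimulatory and checkpoint ligands gave 2 genes higher in macrophages (Cd274 and Tnfsf9) and 1 higher in monocytes (Cd40) of 6 tested, with a median of -1.20; each of these calls was lost in 4 of the 6 fits that left out a library, with 0 to 2 genes called higher in macrophages and 0 to 3 higher in monocytes. Cd86, not called, stood at 12.3, 12.3 and 28.4 CPM in macrophages and 44.1, 63.0 and 56.4 CPM in monocytes.

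Sensing and signaling genes were mixed. Of 16 Toll-like receptor genes tested, 3 were called higher in macrophages and 0 in monocytes (median 0.75). Cd14, the lipopolysaccharide co-receptor, stood at 921, 567 and 2287 CPM in macrophages and 40.2, 181 and 127 CPM in monocytes (3.44 ± 0.67), Tlr4, the lipopolysaccharide receptor, at 159.7, 143 and 192 CPM and 31.7, 33.7 and 24.8 CPM (2.45 ± 0.22), and Tlr7, a receptor for single-stranded RNA, at 156, 189 and 211 CPM and 40.5, 34.9 and 25.7 CPM (2.47 ± 0.24). No library of either group crossed into the other for these 3 genes, and without monocyte replicate 2 the count called was 5. Of 19 interferon-stimulated genes tested, 3 were called higher in monocytes (background 7.63%) and 1, Oas3, higher in macrophages (background 5.61%). The median was -1.06, and it was -0.61 without macrophage replicate 2 and -1.745 without macrophage replicate 3. Mx1, an antiviral GTPase, stood at 1.04, 2.01 and 0.772 CPM in macrophages and 15.2 to 16.7 CPM in monocytes (-3.65 ± 0.43) and Zbp1, a sensor of unusual nucleic acids, at 3.96, 2.07 and 4.22 CPM and 18.2, 22.8 and 22.3 CPM (-2.65 ± 0.38), whereas Oas3 and Cxcl10 did not keep their calls in all leave-one-out fits, which called 0 to 2 genes higher in macrophages and 2 to 4 in monocytes. Of 6 tested genes of inflammatory and alternative activation, 0 were called higher in macrophages and 2, Il1b and Chil3, in monocytes, with a median of -0.35 that turned positive in several settings. Il1b, interleukin-1 beta, stood at 0.172, 0 and 0 CPM and 1.74, 4.08 and 2.77 CPM, and Chil3, a secreted lectin, at 4.63, 2.57 and 0.376 CPM and 948, 2271 and 5260.4 CPM. Il6 and Retnla were listed at 0 in all macrophage libraries, Il10 and Il12b in all monocyte libraries and Nos2 in all 6. Of 6 Fc receptor genes 0 were called by limma, with a median of 1.35 and an unadjusted p below 0.05 for 4; Fcgr2b, Fcgr3 and Fcer1g stood above every monocyte library in all macrophage libraries, by less than the limit. Fcgr1 was called higher in macrophages without macrophage replicate 2 and Fcgr4 without macrophage replicate 3.

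Chemokine genes and their receptors were called in both directions. Of 11 chemokines tested, 4 were called higher in macrophages and 2 in monocytes. Cxcl16, a membrane-bound chemokine and scavenger of oxidized lipid, stood at 84.1, 172 and 144 CPM in macrophages and 1.00, 0.443 and 0.706 CPM in monocytes (7.35 ± 0.42; limma adjusted p 6.86e-05), and Ccl4 at 113, 94.7 and 198 CPM and 3.19, 13.6 and 17.9 CPM. Ccl5 lay the other way, at 0.695, 0.514 and 3.62 CPM and 14.5, 20.1 and 28.1 CPM (-4.05 ± 0.71). Ccl2, not called, ranged over 40.3, 6.28 and 537 CPM in macrophages. The list median of 1.61 was -0.63, -0.21 and -0.74 without macrophage replicates 1, 2 and 3. In those fits CPM above 1 was asked of at least 3 libraries, and 9 genes were tested. With at least 2 libraries asked the median stayed positive. Over 11 genes it was then 0.05 without macrophage replicate 3 and 0.39 without monocyte replicate 1. Fits with this filter called 3 to 5 genes higher in macrophages. They called 1 higher in monocytes, and 3 without macrophage replicate 3. Ccl7, Cxcl2 and Cxcl10 did not keep their calls. Of 14 receptors tested, 2 were called higher in macrophages and 6 in monocytes (median -0.39); without macrophage replicate 3 the former count was 4 and the median -1.13. Besides Ccr2, these were Ccr1, Ccr3, Cxcr2 and the formyl peptide receptors Fpr1 and Fpr2; Cxcr2, a receptor of neutrophils, stood at 1.10, 1.10 and 0.523 CPM and 17.6, 59.6 and 24.9 CPM (-4.95 ± 0.55).

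Adhesion and matrix genes differed member by member. Of 20 integrin and adhesion genes, 2 were called higher in macrophages and 6 in monocytes (median 0.34); without macrophage replicate 3 the former count was 4. Fn1, fibronectin, stood at 23.7, 7.10 and 35.3 CPM in macrophages and 2770.2, 2761 and 2857 CPM in monocytes (-7.26 ± 0.53), and Selplg, the ligand of P-selectin, at 146, 149 and 236 CPM and 868, 1145 and 1037 CPM (-2.55 ± 0.25). Cadm1, an adhesion molecule, lay the other way at 80.1, 131 and 196 CPM and 1.12, 0.890 and 0.668 CPM (7.02 ± 0.41), as did Itgav, the alpha V integrin (2.71 ± 0.45). The groups were apart for all 4 genes. Itgax, which encodes CD11c, was not called: replicates 1 and 2 of the macrophages were high and replicate 3 was within the monocyte range (199, 162 and 7.27 CPM against 7.31, 2.67 and 3.02 CPM). Of 10 tested matrix proteases and inhibitors, 5 were called higher in macrophages and 3 in monocytes (median 2.57, and 1.49 without macrophage replicate 1 when CPM above 1 was asked of at least 3 libraries). Adam8 stood at 1072, 426 and 3581 CPM and 17.8, 43.7 and 25.9 CPM (5.43 ± 0.73), and Mmp8, neutrophil collagenase, at 13.4, 14.3 and 21.9 CPM and 499.6, 815 and 757 CPM (-5.38 ± 0.28); the calls of Mmp9, Mmp13 and Timp2 were not kept in all leave-one-out fits, which called 3 to 6 genes higher in macrophages with CPM above 1 in at least 2 libraries and 2 to 4 with at least 3. Of 9 tested genes linked to osteoclasts, 5 were called higher in macrophages and 1 in monocytes (median 3.32, and 1.83 without macrophage replicate 1 under that filter). Spp1, osteopontin, stood at 2994, 1965 and 9061 CPM and 195, 228 and 284 CPM (4.01 ± 0.53), and Tnfrsf11a, the receptor RANK, at 49.9, 16.3 and 25.9 CPM and 2.21, 2.68 and 3.22 CPM (3.32 ± 0.46), without overlap, whereas Acp5 and Ctsk, an acid phosphatase and a protease of mature osteoclasts, were not called. The gene called higher in monocytes was Mmp9, and 0 were called on that side without macrophage replicate 1, monocyte replicate 2 or monocyte replicate 3.

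Growth factor receptors of myeloid cells were called in both directions. Of 15 receptors, 5 were called higher in monocytes and 2 in macrophages (median -0.59). Without any 1 of the monocyte libraries, and with CPM above 1 in at least 3 libraries, the median turned positive and 0 were called higher in monocytes. Kit, the stem cell factor receptor, stood at 0.138, 0.159 and 0 CPM in macrophages and 21.6, 23.3 and 9.00 CPM in monocytes (-6.51 ± 0.60), and Flt3, a receptor of progenitors and dendritic cells, at 0.304, 0.197 and 0.121 CPM and 8.28, 8.08 and 8.19 CPM (-4.80 ± 0.44). Macrophages were at or near 0 for both genes, and monocyte replicate 3 was the lowest of its group for Kit. The receptors for TGF-beta lay the other way, Tgfbr2 at 206, 209 and 401 CPM and 14.1, 18.2 and 15.7 CPM (4.01 ± 0.30) and Tgfbr1 by 2.89 ± 0.32. With at least 2 libraries asked, Csf3r and Il6ra were not called in all leave-one-out fits, which called 3 to 5 genes higher in monocytes and 2 to 3 in macrophages and kept a negative median.

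The monocyte libraries also held transcripts of other marrow cells. Together, 11 lists of other cell types summed to 2.19%, 2.99% and 2.54% of the counts in monocyte replicates 1, 2 and 3 and to 0.0775%, 0.0761% and 0.0529% in macrophages. The largest negative log2 fold change among all genes named by fold belonged to Prss34, a protease of basophils, at 6.62, 4.30 and 0.0421 CPM in macrophages and 2998, 3527 and 4341 CPM in monocytes (-11.12 ± 1.31; limma adjusted p 0.00099). Mpo, the myeloperoxidase of primary granules, stood at 16.1, 9.84 and 0 CPM and 4067, 4819 and 5328 CPM (-10.86 ± 1.73), and Elane, neutrophil elastase, at 4.39, 3.96 and 0 CPM and 916, 1373 and 2771 CPM (-10.28 ± 1.38). These transcripts were abundant in all 3 monocyte libraries and far lower in each macrophage library, where Mpo and Elane were listed at 0 in replicate 3. Other genes that the rule names on this side were I830127L07Rik, Chil3, Cd177, Mcpt8, Pglyrp1, Igkc, Hp, Ppbp, Ly6c2 and Igha, with log2 fold changes of -10.71 to -9.46. Tmsb10, which binds actin monomers, was with Arhgdib among the 5 most abundant genes called higher in monocytes (2120, 3006 and 4126 CPM against 524, 465 and 680 CPM in macrophages); Arhgdib lost its call without macrophage replicate 2.

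By list, the counts called higher in monocytes were 7 of 7 tested for primary granule genes (median -9.04), 12 of 12 for neutrophil genes (-7.85), 9 of 9 for basophil and mast cell genes (-8.07) and 5 of 6 for eosinophil genes (-5.27). They were 7 of 9 for erythroid genes (-6.20), 4 of 6 for megakaryocyte genes (-7.78), 9 of 9 for B lineage genes (-4.63) and 7 of 8 for T and NK genes (-5.21, the same with Ncr1, listed at 0 in all macrophages, at its bound). They were 6 of 10 for dendritic cell genes (-3.51, also with Ccr7 at its bound), 3 of 7 for stem and progenitor genes (-3.73) and 3 of 8 for stroma and endothelium (-1.31), and 0 genes of these 11 lists were called higher in macrophages; without macrophage replicate 3, Siglecf, Cd4 and Itgax were, of the eosinophil, T and NK and dendritic lists. With CPM above 1 in at least 2 libraries, leaving out a library gave 1 (without macrophage replicate 2) to 4 (without macrophage replicate 3) for stroma, 3 to 5, and 6 without macrophage replicate 3, for stem and progenitor genes, and 6 for megakaryocyte genes without monocyte replicate 3 or macrophage replicate 3. Most abundant in monocytes were Mpo, Ngp, Prss34, Ear2, Car2, Ppbp, Ighm, Nkg7, Cd209a, Cd48 and Col1a1 in the order of the lists. With 1 CPM added before the logarithm, the counts were 6 for B lineage genes (median -2.51), 6 for T and NK genes (-2.87), 3 for eosinophil genes (-2.72), 4 for dendritic cell genes (-1.60), 2 for stroma and 3 for stem and progenitor genes (-1.94), and those of the other 5 lists stayed the same with medians nearer 0. Genes near 0 in macrophages enter the test only if all 3 monocyte libraries are above 1 CPM, so low markers are missing and the shares called were in part set by the filter. Without a monocyte library and with at least 3 libraries asked, the genes tested fell to 5 for neutrophils and 3 for the B lineage. They fell to 2 each for basophils and mast cells, eosinophils, T and NK cells and megakaryocytes. Without monocyte replicates 1, 2 and 3 in turn, the T and NK calls were 1, 0 and 0 (medians -0.29, 0.03 and 0.03). The megakaryocyte calls were 0, 0 and 1. Under that filter the stem and progenitor median was -1.74 without monocyte replicate 1 and -5.95 without macrophage replicate 3. The stroma median was -0.36 without monocyte replicate 2.

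The other cells differed between the monocyte libraries. Ngp, a neutrophil granule protein, stood at 234, 5865 and 2183 CPM in monocytes, lowest in replicate 1, and the summed neutrophil list at 2052, 12326 and 6153 CPM against 143, 174 and 44.0 CPM in macrophages. Ppbp, a platelet chemokine, stood at 1406, 821 and 74.8 CPM, lowest in replicate 3, as did the summed megakaryocyte list at 2813, 1595 and 161 CPM. Igkc, the kappa light chain of antibodies, stood at 2723, 252 and 178 CPM, highest in replicate 1. The basophil list was steadier, at 3971, 4457 and 5363 CPM. Defining markers of other cells listed at 0 in all macrophages and above 0 in a monocyte library included Hbb-bt, Gp1bb, Gp6, Trac, Ncr1, Gzmb, Ccr7, Hlf, Hoxa9 and Col3a1. Fewer genes were above 0 in the macrophage libraries, as given above. Ndufa4, a respiratory chain gene, was also listed at 0 in all macrophages, and whether such zeros mean absent cells was not tested. Some genes of these lists, such as Mpo, Csf3r and Cd48, are also known from monocytes and their precursors, and Mmp8 stands in the classical monocyte list as well. The part of these other cells in the genes called higher in monocytes was not tested.

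**Figure D5:**
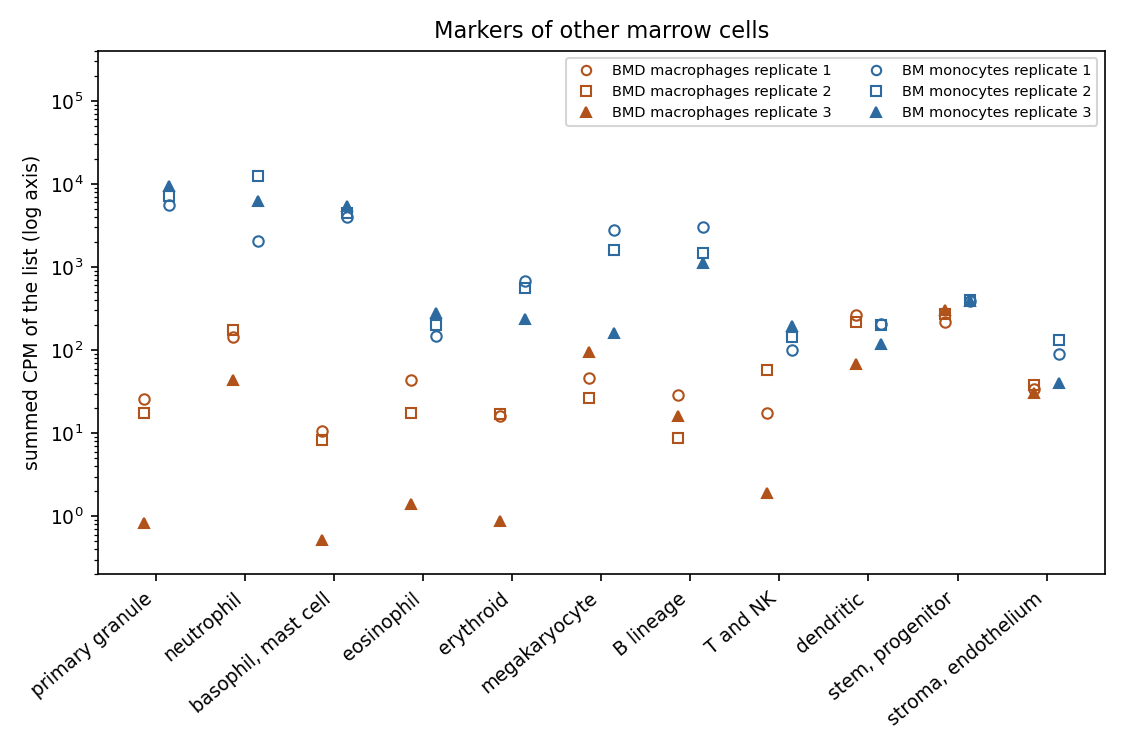
Each symbol is the summed CPM (log axis) of a list of markers of other marrow cells in a library; circles, squares and triangles are replicates 1, 2 and 3, orange for BMD macrophages and blue for BM monocytes. The primary granule list reaches 5627, 7109 and 9508 CPM in the monocyte libraries and 25.5, 17.3 and 0.837 CPM in the macrophage libraries, and the neutrophil and megakaryocyte lists spread most among monocyte libraries.

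The comparison was set beside ER-Hoxb8 cells, whose estrogen-dependent Hoxb8 holds them as progenitors until estradiol is withdrawn. ER-Hoxb8 macrophages after 7 days in M-CSF were compared with ER-Hoxb8 cells after 4 days, 3 libraries each and made from FVB mice that carry Cas9, in a fit of 12 libraries that share no sample between the contrasts and differ in lowest deposited value in the same way. Of 11597 genes tested, limma called 0 (0%) between the ER-Hoxb8 groups, and 750 genes had an unadjusted p below 0.05. In the same fit 1543 genes (13.3%) were called between BMD macrophages and BM monocytes, 668 (5.76%) higher in macrophages and 875 (7.55%) higher in monocytes, and for 869 (7.49%) the contrasts differed in size by the same limits, 351 (3.03%) with the marrow contrast above and 518 (4.47%) with it below. Of the 1543, 814 were also called for the difference. With replicate number as a block the difference gave 876 calls and the ER-Hoxb8 contrast 0. Since ER-Hoxb8 cells at 4 days had been in culture for differentiation and monocytes had not, the contrasts do not match in stage.

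Single genes show where the contrasts parted. Dab2 stood at 2284, 1459 and 95.2 CPM in ER-Hoxb8 macrophages and 2025, 1118 and 1687 CPM in ER-Hoxb8 cells at 4 days, so both groups were at macrophage levels except ER-Hoxb8 macrophage replicate 3, and the marrow contrast exceeded it by 9.78 ± 1.53 on the log2 scale (limma adjusted p 0.00212). Stab1 stood at 47.6, 131 and 35.5 CPM and 35.6, 52.6 and 88.2 CPM, with a difference of 6.82 ± 0.67 between the contrasts. Id3 stood at 2.60, 25.9 and 0.130 CPM and 1.62, 23.6 and 2.84 CPM, far under its level in BMD macrophages (difference 8.20 ± 1.98). Ly6c2 stood at 7.33, 28.0 and 2.97 CPM and 15.9, 138 and 69.8 CPM, wide apart among replicates of both groups (difference -6.97 ± 1.15). By list, the difference was called with the marrow contrast above for 8 of 35 lysosomal genes, 8 of 21 scavenging genes, 6 of 12 iron genes and 9 of 20 sterol genes, and with it below for 6 of 12 classical monocyte genes and 0 of 18 mitosis genes. The mitosis medians were -2.99 in the marrow contrast and -1.57 in the ER-Hoxb8 contrast. The sterol medians were 1.32 and -0.79, of opposite sign, so the sterol count reflects both contrasts.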

How the data were processed

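The deposited values were taken to be log2 CPM with a constant added before the logarithm, after TMM normalization by the authors, who trimmed reads with fastp, quantified them on the GRCm39 transcriptome with kallisto 0.46.0 and used edgeR and limma. The unit was read from the values: the lowest value was -4.34246 in the monocyte columns and -3.61564 in the macrophage columns, and the groups were taken to lie in different normalization sets. CPM were therefore rebuilt as 2 to the power of the value minus 2 to the power of the lowest value, and the 6 libraries were rescaled together by an unweighted trimmed mean of log ratios. The table holds 29956 named genes, and 1 line without a gene name held 0.00628% to 0.0252% of the counts and was left out. Depth is an estimate from the smallest step shared by low rebuilt values; under that estimate 28.7% to 36.7% of the low values were whole counts within a tolerance of 0.05, since kallisto gives fractional counts. The deposited decimals resolve less than 1 count.

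Differences were tested with limma 3.58.1 (with a mean-variance trend) in R 4.3.3 on log2(CPM + 0.1), for each gene above 1 CPM in 3 or more libraries, and p was adjusted by Benjamini-Hochberg across the genes tested. Where all libraries of a group are at 0, no fitted fold is given. Named genes are those of 41 lists, the 15 with the largest log2 fold change in each direction among called genes without overlap and above 10 CPM, the 5 most abundant called genes in each direction, the 5 with the largest spread within each group and the 10 with the largest called difference from the ER-Hoxb8 contrast. A few genes that these rules name are counted in the lists and are not reported here. The libraries compared and the lists were chosen with earlier results of these data known. Alternatives varied the pseudocount, the filter, the scaling, the fold limit, weights, the trend, the libraries in the fit and a replicate block, and left out each library in turn; leaving out a library while asking 1 CPM of only 2 libraries was added after seeing the data, because with 1 of 3 libraries of a group gone a gene present in the other 2 alone can no longer pass a filter of 3. Reads, ages, sexes and batches were not used here. Promoters are RefSeq promoters of GRCm38.p6, an earlier build than the authors used.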

Additional observations from a re-analysis of the deposited data

Results flagged for a closer look

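Of the 10 largest called differences between the marrow contrast and the ER-Hoxb8 contrast, 9 are given here as log2 differences from limma and Benjamini-Hochberg adjusted p. They were -11.3 for Prss34 (adjusted p 0.000848), -10.7 for Mpo (0.00499), -10.4 for Elane (0.00176) and -10.3 for Cd177 (7.33e-05). They were -10.0 for Pglyrp1 (7.92e-05), -9.98 for I830127L07Rik (5.64e-05), -9.75 for Mcpt8 (0.000344) and -9.73 for Igkc (0.00235), and on the other side 9.78 for Dab2 (0.00212). The ER-Hoxb8 contrast was -1.20 ± 1.08 for Dab2 and small for the others: Prss34 stood at 10.1, 5.34 and 4.88 CPM in ER-Hoxb8 macrophages and 3.99, 6.02 and 7.35 CPM in ER-Hoxb8 cells at 4 days, and Cd177 at 1.52, 1.60 and 3.83 CPM and 1.66, 4.74 and 0.901 CPM. For all 9 genes but Dab2, the mean of each ER-Hoxb8 group was below 20 CPM.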

How the results depend on the processing

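With 3 libraries a group, the number of genes called depended on the limits and on single libraries. Of the settings that were tried, a log2 fold limit of 1 called 2428 genes in place of 1489 (1124 higher in macrophages in place of 631, and 1304 higher in monocytes in place of 858), and a mean CPM above 5 called 569 higher in monocytes. Leaving out each library in turn gave 789 to 1661 genes, 454 to 565 higher in macrophages and 279 to 1096 higher in monocytes, the low ends of the total and of the monocyte count with a monocyte library gone, when genes present in monocytes alone could not pass the filter of 3 libraries. With a filter of 2 libraries, chosen after seeing the data, the ranges were 1285 to 1992, 545 to 767 and 717 to 1225. For the difference from the ER-Hoxb8 contrast, a mean CPM above 5 called 520 genes in place of 869, and array weights called 1559. Leaving out a library gave 372 to 873, and 715 to 974 with a filter of 2 libraries. The ER-Hoxb8 contrast gave 0 in every setting. The log2 fold change of Cx3cr1 (-0.35) was 2.06 without macrophage replicate 2, under either filter, and -1.72 without macrophage replicate 3. Of 984 medians of lists under other settings, 133 moved, and 28 had the other sign, in 8 of the 41 lists. Group and normalization set cannot be told apart, nor can culture and the cells present at the start. Y transcripts, given below, were also unbalanced between the groups, so group and sex are in part confounded.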

Other observations

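Genes of the Y chromosome differed among the monocyte libraries. Ddx3y, an RNA helicase of the Y chromosome, stood at 93.2, 0.139 and 67.0 CPM in monocyte replicates 1, 2 and 3 and at 0.339, 0.171 and 0.0528 CPM in macrophages, and Eif2s3y at 123, 0.0290 and 98.4 CPM and 0.0484, 0.102 and 0 CPM. Monocyte replicates 1 and 3 thus carried Y transcripts, and monocyte replicate 2 and all macrophage libraries had next to none. For replicates 1 and 3, macrophages and monocytes of the same number therefore cannot have come from the same animal or pool. Kdm5d was the gene of this list that was tested, and it was not called (log2 fold change -2.86 ± 1.04); it was called higher in monocytes without replicate 2 (-4.14). The sex of the animals is not given in the labels.

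Early response genes, which can be switched on while cells are prepared, spread widely among monocytes. Of 14 tested, 2 (Btg2 and Nr4a1) were called higher in monocytes and 1 (Atf3) in macrophages, with a median of -1.61 that turned positive in some settings. Without monocyte replicate 1, and with CPM above 1 in at least 2 libraries, 16 were tested and 5 were called higher in monocytes. Fos stood at 50.2, 1539.9 and 1170.1 CPM in monocytes, low in replicate 1, and 101, 27.0 and 77.6 CPM in macrophages. The genes with the largest spread in monocytes were Hspa1a, a heat shock protein (0.365, 282 and 74.2 CPM), Idh3a, Tyrobp, Hspa1b and Ighg2c, and those in macrophages were Dopey2, Gm8203, Tyrobp, Ddx6 and Rce1. Tyrobp, the adaptor of Trem2, stood at 58.8, 6.53 and 0.00235 CPM in macrophages and 223, 0.849 and 0.411 CPM in monocytes, close to 0 in some libraries of each group and abundant in others.

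Markers of other cells were also found at low levels in macrophages. For 8 genes of other cells chosen after values were seen (Prss34, Mcpt8, Cpa3, Ngp, Camp, Igkc, Nkg7 and Ppbp), the level as a share of the monocyte mean was 0.114% to 0.463% in macrophage replicate 1 (median 0.227%), 0.0747% to 0.268% in replicate 2 (median 0.146%) and 0% to 0.0311% in replicate 3. ER-Hoxb8 macrophage replicates 1, 2 and 3, which come from immortalized progenitors, had medians of 0.290%, 0.191% and 0.178%. The source of these traces was not tested.

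BM progenitors of the same series had Mpo at 4800.2, 8311 and 10365 CPM and Prss34 at 3989, 2453 and 2550 CPM in replicates 1, 2 and 3, beside 3950, 4714 and 5184 CPM and 2911, 3449 and 4224 CPM in monocytes on the same scaling over 18 libraries. Ly6c2 stood at 102, 288 and 348 CPM and Top2a at 502, 653 and 614 CPM in progenitors. The progenitor values were not part of a test.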
